A study of Mus musculus with 6 samples.

Results

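NOVA2 clusters that lay in 3′ UTRs and overlapped no NOVA1 cluster numbered 1568, out of 4415 NOVA2 clusters in 3′ UTRs, 36591 NOVA2 clusters and 46579 clusters of both proteins. They were selected on measured values: a cluster was taken when most of its nucleotides fell in the 3′ UTR of a protein-coding transcript on its own strand and no NOVA1 cluster touched it on that strand by as much as 1 nt. They are called NOVA2-only 3′ UTR clusters here, and the other 2847 NOVA2 clusters in 3′ UTRs, which did overlap NOVA1, are called shared. The data came from HITS-CLIP, in which UV light crosslinks a protein to the RNA it touches, the RNA is partly digested, the protein is pulled down with an antibody, and the bound fragments are sequenced as tags. NOVA1 and NOVA2 were each assayed in 3 libraries from the cortex of wild-type CD1 mice at embryonic day 18.5. Both groups had the same strain, tissue, stage and genotype and differed in the protein that was precipitated. The authors pooled the libraries of each protein into 1 list of clusters, so each cluster has a single tag count, no spread between replicates can be given, and no test was possible. The intervals below are 95% intervals that cover counting error only.

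NOVA1 and NOVA2, a pair of KH-domain proteins of neurons, both recognise YCAY in RNA, where Y stands for C or U. Bound in introns and exons near alternative exons they set which exon is used, while binding in 3′ UTRs has been linked to the choice of polyadenylation site, to mRNA stability and to the localisation of transcripts in neurons. The 3′ UTR is also where microRNAs and many other regulatory proteins meet the mature mRNA.

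Stretches rich in YCAY under strong NOVA2-only clusters are shown as examples. They were picked for their YCAY, so they do not measure motif content, and a cluster does not place the contact within a window. For the 10 clusters of highest tag count that held 3 or more YCAY within 30 nt, other than that of Tcf4, the window of 30 nt with the most YCAY is given 5′ to 3′ on the transcript strand (mm9, T for U), with every YCAY in capitals and overlapping copies run together.
Zbtb20, chr16:43628462-43628491, plus strand: ttgtcaaTCATtatcttcaagtcTCATCAC
Nploc4, chr11:120242206-120242235, minus strand: cctgtttgCCACtgcttgtcccCCATTCAT
Ppm1a, chr12:73888707-73888736, plus strand: CCATgtccttgcatcTCATtgtgtctTCAT
Prkx, chrX:75017645-75017674, minus strand: atCCACCCACCCATCCATCCATctatCCAC
Gpkow, chrX:7287262-7287291, plus strand: tgagaattTCACaTCATacatcctcgTCAC
Sept8, chr11:53357547-53357576, plus strand: tCCATCCACtttgtacTCATttgtttTCAT
Cep350, chr1:157694046-157694075, minus strand: cgTCACtcctcttgcgttTCATcctgTCAT
Mef2c, chr13:83803892-83803921, plus strand: tatCCACctTCATgattttaactgacCCAT
Osbpl5, chr7:150874757-150874786, minus strand: tgCCATctCCATtgtatctgatccttTCAT
Lphn3, chr5:82221724-82221753, plus strand: gtgcattCCATCATtaaacatgtgtcCCAT
In 8 of these windows there were 3 YCAY, in that of Sept8 there were 4, and that of Prkx was a run of CCAC and CCAT repeats with 6. Osbpl5 encodes a lipid transfer protein and Lphn3 an adhesion receptor of synapses; the other genes are described with their values below.

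NOVA2-only clusters were the weaker part of NOVA2 binding in 3′ UTRs. Their median tag count was 14 (quartiles 11 and 20, range 10 to 112), against 29 (quartiles 16 and 61) for shared clusters, and their median width was 108 nt against 144 nt. They made up 35.5% of NOVA2 3′ UTR clusters (interval 34.1 to 36.9) but held 27263 of 207869 tags there, or 13.1%. The lists start at 10 tags, and 247 members (15.8%) sat exactly on that limit, whereas 393 had 20 or more tags and 30 had 50 or more. At the edge of the rule on overlap, 34 members had a NOVA1 cluster within 10 nt, and 15 shared clusters overlapped NOVA1 by 10 nt or less. At the edge of the rule on class, 9 members had under 60% of their nucleotides in the 3′ UTR, while 1502 (95.8%) lay wholly inside it.

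The share of NOVA2 3′ UTR clusters without NOVA1 fell steeply with the tag count. It was 60.1% (832 of 1384) at 10 to 14 tags, 45.9% at 15 to 19, 33.3% at 20 to 29, 18% at 30 to 49 and 5.63% (29 of 515) at 50 to 99. Of 386 clusters with 100 or more tags, 1 lacked NOVA1 overlap (0.259%), and that was the cluster in Rc3h2. Clusters in coding sequence followed nearly the same course up to 49 tags, from 60.2% to 18.2%, then stood at 18.4% at 50 to 99 tags and at 0 of 32 (Wilson upper limit 10.7%) above that. Intron clusters did not: 98.3% of those with 10 to 14 tags and 52.6% of those with 50 to 99 tags had no NOVA1 overlap. Because NOVA1 overlap and the limit of 10 tags chose the members, these shares are a description.

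**Figure D1:**
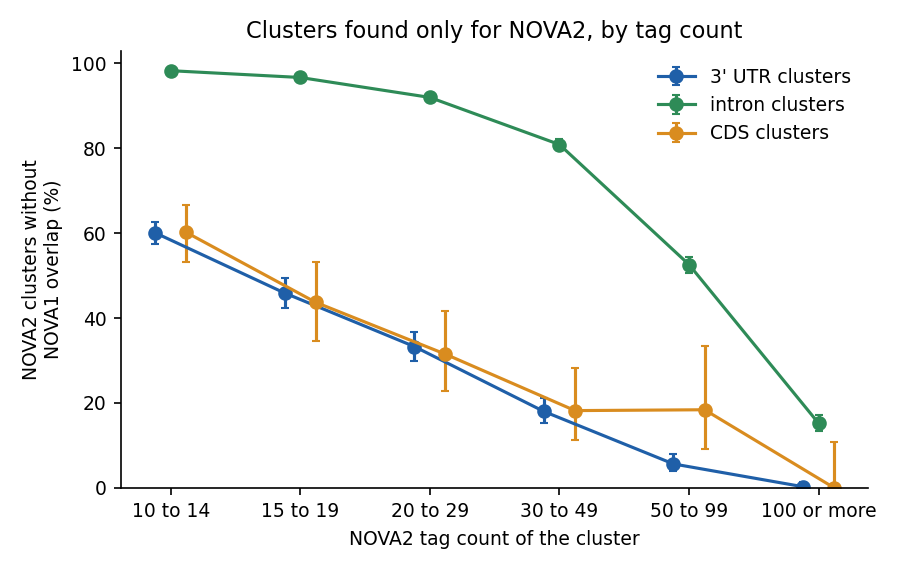
Share of NOVA2 clusters that overlap no NOVA1 cluster (y axis, percent) by NOVA2 tag count (x axis), for 3′ UTR, intron and coding sequence (CDS) clusters; bars are 95% Wilson intervals. The 3′ UTR and CDS shares run together up to 49 tags, from 60.1% and 60.2% at 10 to 14 tags, while the intron share is still 52.6% at 50 to 99 tags.

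Absence of a NOVA1 cluster is not absence of NOVA1 tags, since positions with fewer than 10 tags, or seen in too few NOVA1 libraries, are not in the list. The NOVA1 list held 304703 tags in 9988 clusters and the NOVA2 list 1309270 tags in 36591 clusters, and the part of this difference in the number of NOVA2-only clusters was not tested. In 3′ UTRs the totals were 134781 tags for NOVA1 and 207869 for NOVA2. At 2622 shared NOVA2 clusters that met exactly 1 NOVA1 cluster, and so had 10 or more tags of both, the median NOVA1 tag count was 0.842 of the NOVA2 count (interval 0.811 to 0.867). In whole cortex, fewer cells that make a transcript and less of it per cell cannot be told apart, nor can either be told from less binding.

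The strongest member lay in the 3′ UTR of Rc3h2, which encodes Roquin-2, an RNA-binding ubiquitin ligase that itself acts on 3′ UTRs to promote mRNA decay. It held 112 tags over 284 nt (chr2:37229477-37229760, minus strand), 1300 nt after the stop codon of a 5331-nt UTR, and the nearest NOVA1 cluster, of 28 tags, was 1292 nt away. Transcription factors came next. Tcf4, a basic helix-loop-helix factor, had a cluster of 85 tags, and Zbtb20, a zinc-finger repressor that patterns hippocampal and cortical neurons, had 1 of 84 tags (chr16:43628342-43628613) that ended 170 nt from a NOVA1 cluster of 28 tags. Bcl11a, a zinc-finger factor of cortical projection neurons, had a cluster of 72 tags within 96 nt, the narrowest among those above 70 tags.

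Below these, Nploc4, a cofactor of the p97 ATPase in ubiquitin-dependent turnover, and Ppm1a, a serine/threonine phosphatase, had clusters of 64 tags each. N4bp2l2 had 63 tags with only 2 YCAY. Fat4, a giant protocadherin of planar cell polarity, and Prkx, an X-linked cAMP-dependent kinase, had 62 each, and Gpkow, a spliceosome protein, had 61. Sept8, a septin, and Huwe1, a HECT ubiquitin ligase, had 59 each in clusters that ran past the annotated UTR end, with 72.3% and 57.1% of their nucleotides inside it. Timp3, an inhibitor of metalloproteinases, had 58, the integrin-associated protein gene Cd47 had 57, and the centrosomal gene Cep350 had 56. These 15 strongest members carried from 1 to 13 YCAY, and 12 of them had 3 or more. The poorest was Cd47, with 1 YCAY in 90 nt and a NOVA1 cluster of 59 tags 368 nt away, and the richest was Prkx, with 13 in 159 nt. Strong NOVA2-only binding occurred in genes with and without a NOVA1 3′ UTR cluster. Of the 15, 8 lay in genes with such a cluster, not always in the same annotated UTR. In the others the nearest NOVA1 cluster could be far, as for N4bp2l2 (4049121 nt) and Timp3 (1584125 nt).

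Members were spread over 1101 genes, 52.9% of the 2081 genes with any NOVA2 3′ UTR cluster, and 798 of these genes had 1 member, 194 had 2 and 76 had 3. For 232 genes (21.1%) the member was the only NOVA2 cluster of any kind. NOVA1 was often bound elsewhere in the same gene, though not always in the same transcript. Of the members, 867 (55.3%, interval 52.8 to 57.7) lay in a gene with a NOVA1 3′ UTR cluster and 1054 (67.2%) in a gene with any NOVA1 cluster. Within 1 kb on the same strand, 666 members (42.5%) had a NOVA1 cluster. The gene held a shared 3′ UTR cluster, not always in the same annotated UTR, for 788 members (50.3%). Of those 788, 695 (88.2%) had fewer tags than the strongest shared cluster of the gene, and the median over all 788 was 0.307 of its count. This is a description that the choice of members favours. Clusters without NOVA1 overlap were commoner at low tag counts, and each member was set against the highest shared count of its gene. Conversely, 414 member genes (37.6%) had no NOVA1 cluster at all. NOVA2 also had intron clusters in the genes of 64.5% of members and 65% of shared clusters, a difference of -0.504 percentage points (interval -3.46 to 2.42).

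Only 4 genes had more than 5 members, namely Zbtb20, Mef2c, Nedd4l and Tcf4, and 9 genes had 5, of which the 4 with the highest tag sums are described. Zbtb20 had 9 members along a UTR of 23858 nt, with 14, 20, 84, 12, 15, 29, 28, 13 and 16 tags in order from the stop codon. They lay among 5 shared clusters of 153, 173, 40, 15 and 15 tags, which paired with NOVA1 clusters of 65, 28, 18, 11 and 11 tags. The NOVA1 tag count was thus below the NOVA2 count at each shared position of this UTR, without scaling for the depth of the libraries.

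Mef2c, an activity-regulated transcription factor, had 7 members of 27, 14, 54, 20, 15, 16 and 12 tags and 1 shared cluster of 157 tags, over which NOVA1 formed clusters of 25 and 10 tags. Tcf4 had 6 members, of 18, 13, 85, 26, 29 and 19 tags, all between 939 and 2933 nt after the stop codon. Its 2 shared clusters, of 121 and 147 tags against 29 and 17 for NOVA1, lay at 4008 and 4813 nt. The NOVA2-only and shared stretches of the Tcf4 UTR did not interleave. Rc3h2 had 5 members of 49, 112, 18, 11 and 10 tags beside 1 shared cluster of 53 tags, and here a NOVA2-only cluster was stronger than the shared one. Zfp192, a zinc-finger gene, had 5 members of 38, 17, 52, 30 and 10 tags and 1 shared cluster of 95.

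No NOVA1 3′ UTR cluster was found in the 3 remaining genes described. Nedd4l, a HECT ubiquitin ligase that acts on ion channels, had 7 weak members of 10 to 18 tags from 343 to 3920 nt after the stop codon. Zxdb, an X-linked zinc-finger gene, had 5 members of 14 to 35 tags. Trps1, a GATA-type repressor, had 5 of 11 to 46 tags. In Nedd4l all 7 counts were under 20, whereas Zxdb and Trps1 each had members above that.

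**Figure D2:**
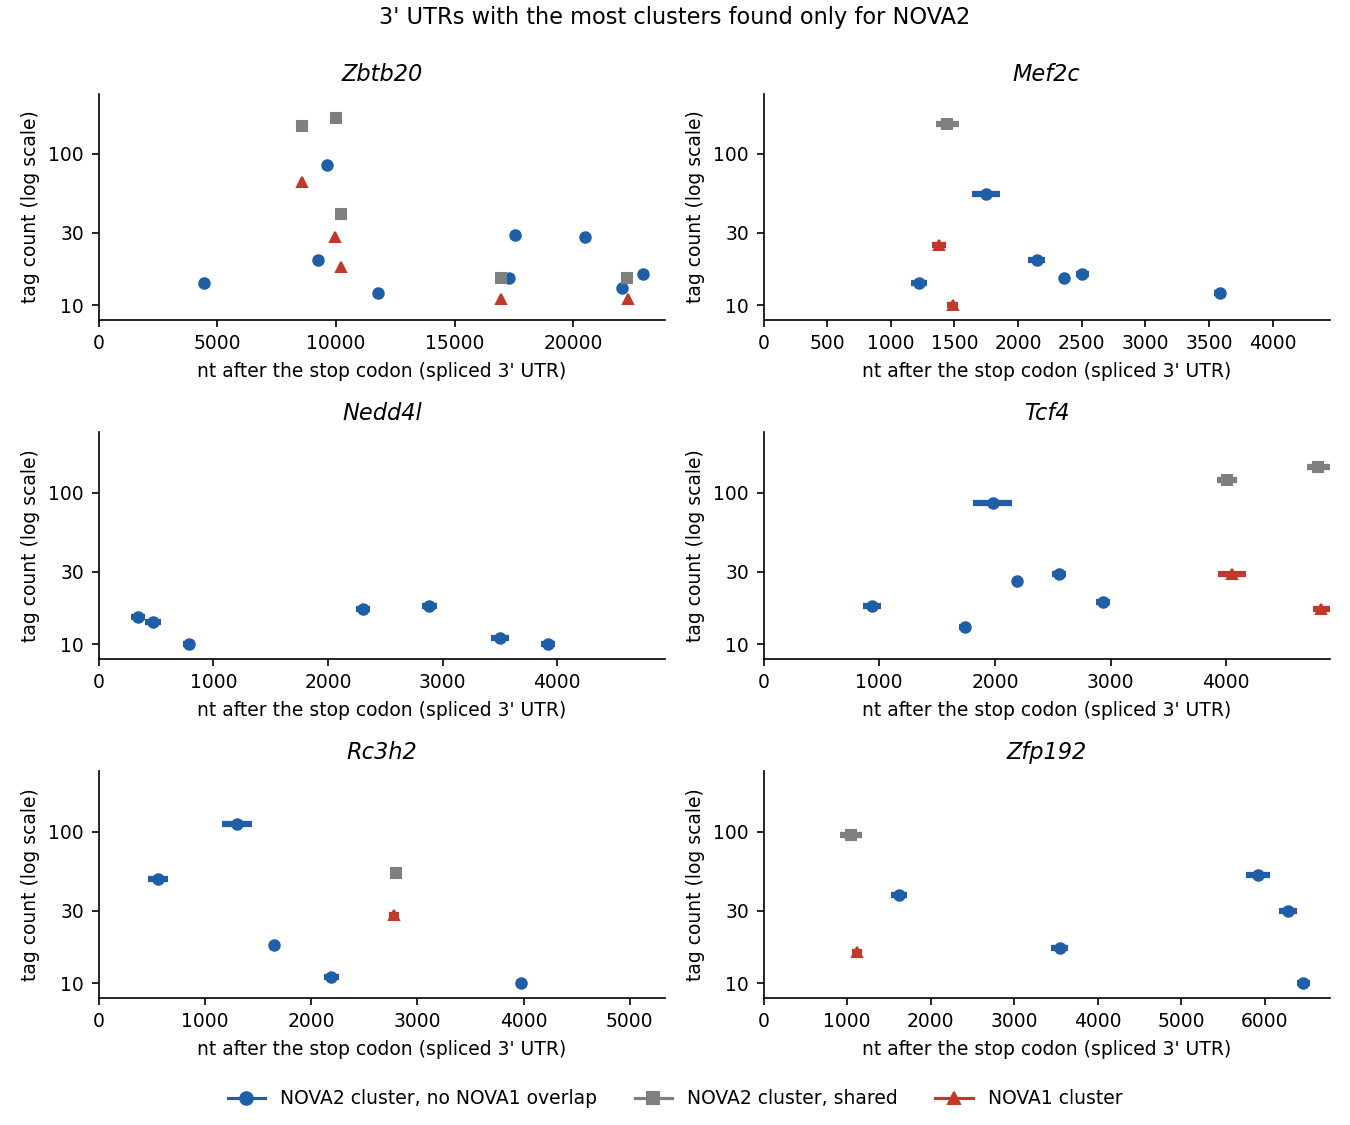
Clusters in the 3′ UTRs of the 4 genes with more than 5 members and of Rc3h2 and Zfp192, those of highest tag sum among 9 genes with 5, by distance after the stop codon in the spliced UTR (x axis, nt) and tag count (y axis, log scale); bars show each cluster's extent, and the Mef2c member 72 nt after the stop codon of another annotated UTR is not drawn. In Tcf4 all 6 NOVA2-only clusters (circles) lie before both shared ones (squares), and Nedd4l holds no NOVA1 cluster (triangles).

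Gene groups differed widely in how much of their NOVA2 3′ UTR binding lacked NOVA1. In transcription factors and chromatin regulators 53 of 86 NOVA2 3′ UTR clusters (61.6%, interval 51.1 to 71.2) were members, against 35.5% over all genes. Of the 30 listed genes with a NOVA2 3′ UTR cluster, 25 had at least 1 member, against 1101 of 2081 (52.9%) over all genes. Members made up 13 of 78 such clusters in axon guidance ligands and receptors (16.7%) and 30 of 166 in cytoskeleton and growth cone genes (18.1%). In synaptic genes they made up 11 of 60 (18.3%), and in ion channels and neurotransmitter receptors 15 of 71 (21.1%). The share among transcription factors exceeded that of axon guidance genes by 45 percentage points (interval 30.6 to 56.6) and that of synaptic genes by 43.3. Ubiquitin ligases (41.1%), RNA-binding proteins (38.6%) and kinases, phosphatases and calcium signalling genes (31.5%) lay closer to the value of all genes. The median NOVA2 tag count of all 3′ UTR clusters was 21.5 in both the transcription factor and the axon guidance list and 20 over all genes. NOVA1 counts were not matched in this way. At shared clusters meeting exactly 1 NOVA1 cluster, the median NOVA1 count was 0.449 of the NOVA2 count in transcription factors (interval 0.325 to 0.667). It was 0.941 in axon guidance genes (0.75 to 1.18), 1.25 in cytoskeleton genes, 0.8 in synaptic genes and 0.842 over all genes. The part of this difference in the shares was not tested.

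Transcription factors had the highest share of the 8 functional lists at both low and high tag counts. Among clusters of 10 to 19 tags, 85.4% in transcription factors, 25% in axon guidance genes and 55.1% in all genes lacked NOVA1. At 20 or more tags these shares were 40% (18 of 45, interval 27 to 54.5), 9.52% (4 of 42, interval 3.77 to 22.1) and 17.2%. The interval of axon guidance genes there includes the value of all genes. These shares use the measure that chose the members and are given without a test.

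**Figure D3:**
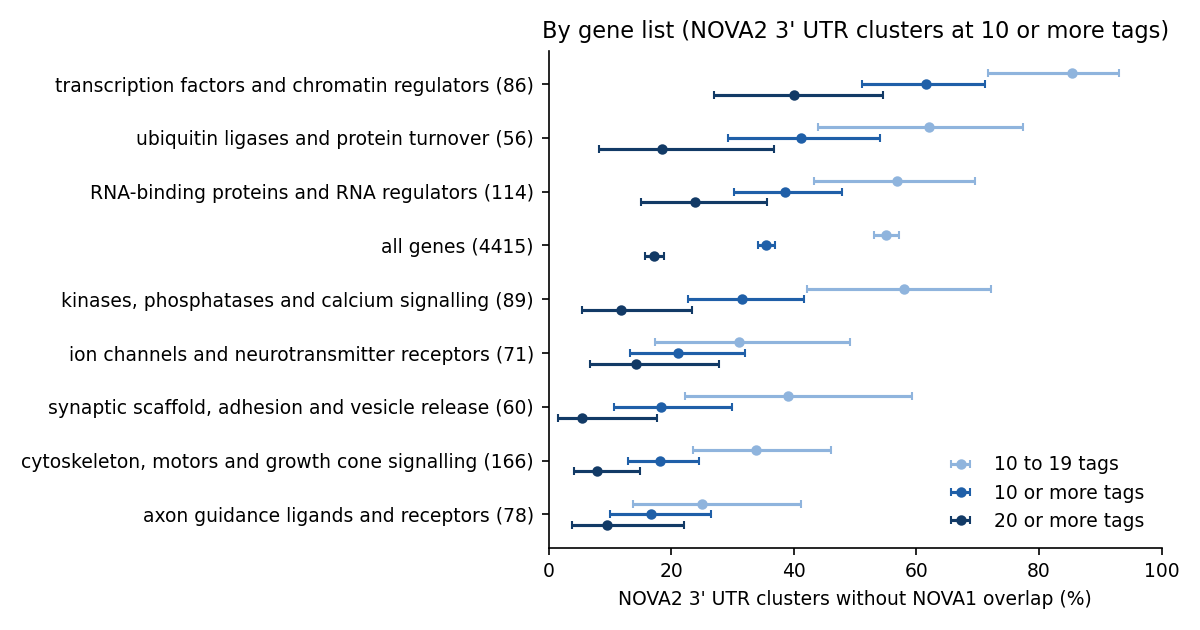
Share of NOVA2 3′ UTR clusters that overlap no NOVA1 cluster (x axis, percent) for 8 gene lists and all genes (y axis, number of clusters in brackets), over clusters of 10 to 19, 10 or more and 20 or more tags; bars are 95% Wilson intervals. Transcription factors lie above all genes, and axon guidance, cytoskeleton and synaptic genes below, in each tag class. The intervals of synaptic genes at 10 to 19 and at 20 or more tags include the value of all genes. So does that of axon guidance genes at 20 or more tags.

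The lists hold chosen genes and leave out several of the strongest hosts described above, among them Zbtb20, Rc3h2, Ppm1a and Prkx, so the leading genes below lead only within their list. On the transcription factor list, the members of highest tag count were those of Tcf4, Bcl11a and Mef2c, with 85, 72 and 54 tags. The list of RNA-binding proteins had members in 24 of 37 genes with a NOVA2 3′ UTR cluster, against 52.9% over all genes. They were led by Celf1, a splicing and decay factor, with 50 tags, Syncrip, an hnRNP-related protein, with 49, and Msi2, a translational regulator of progenitors, with 40. Syncrip had 4 members and no NOVA1 3′ UTR cluster. Nova2 itself had 3 members, up to 26 tags, beside 11 shared clusters. It was chosen after its values were seen, because it encodes the protein assayed. The list of ubiquitin ligases was led by Huwe1 (59 tags), Klhl9 (26) and Cul3 (24), the latter pair parts of cullin-based ligases. On the list of kinases, phosphatases and calcium signalling genes, Mapk8 (JNK1) reached 34, Gsk3b 25 and the calcineurin subunit gene Ppp3ca 24.

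Ion channel members were led by those of the sodium channel gene Scn1a (31 tags) and the calcium channel subunit genes Cacna2d1 (27) and Cacnb4 (26). Dlg2 (44), Cask (31) and Homer2 (16) led the synaptic scaffold genes, and the growth cone gene Trio (32), the formin gene Fmnl2 (24) and Srgap1 (21), which acts downstream of Robo receptors, led the cytoskeletal list. Trio had 4 members and no NOVA1 3′ UTR cluster. In axon guidance, Robo1, a Slit receptor, had a member of 42 tags, the ephrin receptor gene Epha3 1 of 35 and the semaphorin receptor gene Plxna4 2 of up to 30. All 3 receptors also had shared clusters in their 3′ UTRs, 5, 2 and 1 respectively. Of 14 genes whose splicing or phenotype the study examined, 10 had a NOVA2 3′ UTR cluster. A member was found in 4 of these, against 52.9% of all genes with such a cluster: Cask, Robo2 (14 tags), Dclk1 (14) and Enah (10). Members made up 4 of the 32 NOVA2 3′ UTR clusters of the 10 genes (12.5%, interval 4.97 to 28.1), against 35.5% over all genes.

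Zinc-finger genes named Zfp or Zbtb, a family singled out after the values were seen, had 53 members among 89 NOVA2 3′ UTR clusters (59.6%, interval 49.2 to 69.1). These lay in 31 of 44 genes with such a cluster, against 52.9% over all genes. The share of clusters was 24.5 percentage points above that of the other genes (interval 14 to 34.2). Zbtb20 held 9 of these members and Zfp192 5, and the interval treats clusters of 1 gene as independent. Other name families were also counted, with shares from 25.9% (Slc) to 44.4% (Kcn, 4 of 9). At shared Zfp or Zbtb clusters meeting exactly 1 NOVA1 cluster, the median NOVA1 count was 0.607 of the NOVA2 count (0.45 to 0.733). Its part in the share was not tested. The Zfp and Zbtb family is one of gene names, and Zfp36l1, 1 of its genes, encodes an RNA-binding decay factor.

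Cell type markers were checked in the same lists. Of 15 neuron markers 13 had a NOVA2 cluster of any class, and of 27 markers of other cortical cells 5 did. The same share over all annotated genes was not computed, so these counts have no background. The neuron markers had 8 members, in 6 of 9 genes with a NOVA2 3′ UTR cluster, led by Mtap2 (17 tags), Bcl11b (13) and Tbr1 (13). The other list had 1, in the progenitor gene Sox2 (13 tags), 1 of its 2 genes with such a cluster. Over all genes with such a cluster, 52.9% had a member. At 10 to 19 tags, 8 of 11 neuron marker clusters (72.7%, interval 43.4 to 90.3) lacked NOVA1, against 55.1% over all genes. At 20 or more tags, 0 of 29 did (Wilson upper limit 11.7%), against 17.2% over all genes.

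NOVA2-only clusters, like shared ones, were rich in the NOVA motif. They held 29.9 YCAY per kb (5348 in 178727 start positions, interval 29.1 to 30.7), against 28.4 in shared clusters, 24.1 in 978 3′ UTR clusters found only for NOVA1 and 44 in 23455 intron clusters found only for NOVA2. Sequence outside all clusters in the 3′ UTRs of the same genes held 15.3, so members were richer by 1.96-fold (1.9 to 2.01), shared clusters by 1.88-fold and NOVA1-only clusters by 1.54-fold. The ratio of members to shared clusters was 1.05 (1.02 to 1.09), and it was 1.02 both with 1 cluster per gene and without clusters in introns of other coding transcripts, where members held 28.9 (28.1 to 29.7) and shared clusters 28.2 (27.7 to 28.7). The ratio of members to NOVA2-only introns was 0.68 (0.662 to 0.699). Only 39 members (2.49%) held no YCAY. Density was nearly flat from 29.4 at 10 to 14 tags to 30 at 20 to 29 tags, and reached 33.1 (30.9 to 35.4) at 30 or more. Shared clusters stayed between 28.3 and 28.8 in the same classes.

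YCAY was less crowded than in introns. In members 30% had 3 or more YCAY within 30 nt, against 38.3% of the wider shared clusters and 57.4% of NOVA2-only intron clusters. Around the midpoints of members the share with a YCAY start rose to 4.43% at -2 nt, from 1.69% beyond 200 nt, above the peaks of shared (3.89%) and NOVA1-only 3′ UTR clusters (3.17%) and below that of introns (6.05%). Peaks were not adjusted for cluster width, with a median of 108 nt in members, 144 nt in shared and 142 nt in NOVA1-only clusters. Their order is therefore not an order of motif content. UCAU was the most enriched tetramer, at 1.43 on the log2 scale over 3′ UTR sequence of the same genes outside clusters, followed by CAUU (1.14), CAUC (1.10), UCAC (0.98), UUCA (0.95) and CCAU (0.89). CCAC, also a YCAY, was little enriched, at 0.16.

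**Figure D4:**
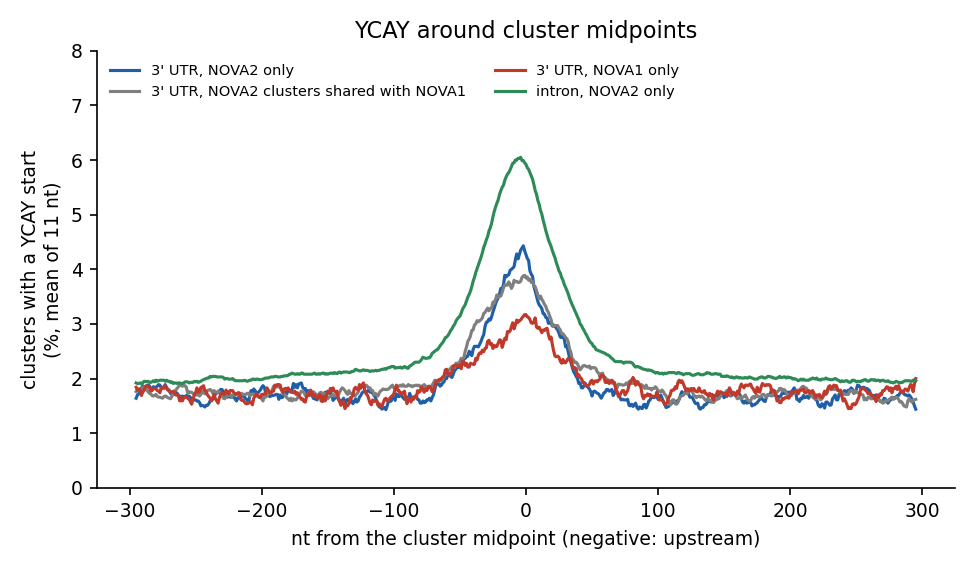
Share of clusters with a YCAY starting at each distance from the cluster midpoint (x axis, nt; y axis, percent, running mean of 11 nt) for 4 groups of clusters. NOVA2-only 3′ UTR clusters peak at 4.43%, between the shared 3′ UTR clusters at 3.89% and the NOVA2-only intron clusters at 6.05%. Peaks are not adjusted for cluster width, and shared clusters are wider.

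Members lay along the whole 3′ UTR. The median distance was 1294 nt (1220 to 1368) from the stop codon and 1019.5 nt (940 to 1095) to the annotated 3′ end, against 1158 and 1112 nt for shared clusters. The final 20% of the UTR held 24.9% of members, 22.3% of shared clusters and 16.8% of NOVA1-only clusters. Within 100 nt of the 3′ end lay 7.97% of members, 6.04% of shared clusters, a difference of 1.93 percentage points (0.377 to 3.59), and 3.48% of NOVA1-only clusters. Within 500 nt of it lay 29.7% and 28.6% of members and shared clusters, a difference of 1.06 points whose interval (-1.72 to 3.89) includes 0. Within the same gene the order was not clear: in 497 genes with both kinds, the members lay nearer the 3′ end in 270 and nearer the stop codon in 227 (54.3%, 49.9 to 58.7).

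Some members lay in sequence that is 3′ UTR in 1 transcript and intron in another. This was so for 173 members (11%, interval 9.58 to 12.7), against 8.11% of shared clusters, a difference of 2.92 percentage points (1.12 to 4.82), and 6.03% of NOVA1-only clusters. In members the share was 10.3% at 10 to 14 tags, 8.45% at 15 to 19, 12.1% at 20 to 29, 15.7% at 30 to 49 and 33.3% (10 of 30, interval 19.2 to 51.2) at 50 or more, and in shared clusters it stayed between 7.06% and 8.84%. Of the 15 strongest members, those of Bcl11a, Ppm1a and Prkx were of this kind over their whole length, and those of Sept8 and Huwe1, wholly within an intron of another transcript, over the part inside the 3′ UTR. The YCAY density of the 173 members was 38 per kb (35.4 to 40.8), 1.32 times that of other members (1.22 to 1.42) and 1.26 times that of shared clusters placed the same way (1.15 to 1.38). Whether the bound RNA was the mRNA or the unspliced transcript cannot be told apart from cluster positions. This comparison, and its split by tag count, were chosen after the values were seen.

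**Figure D5:**
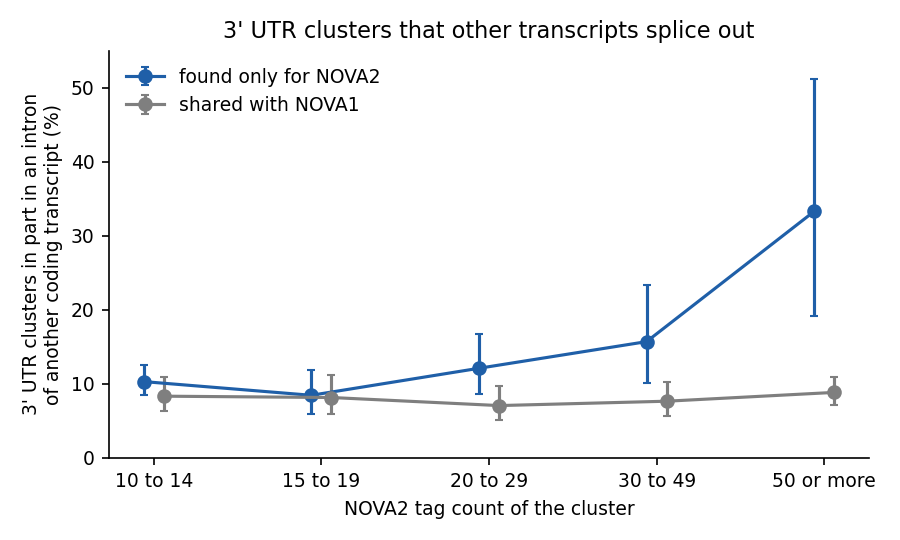
Share of 3′ UTR clusters that lie at least in part in an intron of another coding transcript (y axis, percent) by NOVA2 tag count (x axis); bars are 95% Wilson intervals. NOVA2-only clusters reach 33.3% at 50 or more tags, on 30 clusters, while shared clusters stay between 7.06% and 8.84%.

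Other sequence marks of 3′ UTRs were compared with windows of the same length in the same UTRs outside clusters. A polyadenylation signal, AATAAA or ATTAAA on the transcript strand, stood in 251 members (16%, 14.3 to 17.9) and in 21.7% of the wider shared clusters. Among the 1547 members and 2616 shared clusters with such windows, it stood in 15.8% and 20.7%, against 14.6% and 18.3% of windows. The AU-rich pentamer ATTTA stood in 25.3% of members and in 29.7% of shared clusters. Among those with windows the shares were 25.4% and 28.3%, against 19.9% and 24% of windows. Matches to the seeds (bases 2 to 8) of 8 microRNAs of brain were counted, and the pair whose share differed most from the windows, in percentage points, is shown with the seed in capitals (RefSeq, GRCm38.p6). The pair was chosen after the values were seen.
mmu-miR-128-3p: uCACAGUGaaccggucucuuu
mmu-miR-125b-5p: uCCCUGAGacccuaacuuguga
The match to miR-128-3p, CACUGUG, was found in 38 members (2.42%, 1.77 to 3.31) and in 3.62% of shared clusters. Among those with windows the shares were 2.46% and 3.48%, against 1.64% and 1.99% of windows. The match to miR-125b-5p, CUCAGGG, was found in 4 members (0.255%) and in 0.421% of shared clusters. Among those with windows the shares were 0.259% and 0.344%, against 0.873% and 1.24% of windows.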

How the data were processed

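Per the deposited files, the authors gave 1 BED list of clusters for each protein (mm9), with a whole-number tag count per cluster pooled over 3 libraries. Per the submitters' processing notes and the study's methods, tags were aligned with Novoalign and PCR duplicates were removed, and clusters had to recur in more than 1 replicate and hold at least 10 tags. The study describes that value both as a number of tags and as a peak height, and the files do not settle which. Depth per library was not analysed here, because counts were pooled. The study reports more unique tags in total for NOVA2 than for NOVA1, and cluster counts were not scaled to that difference.

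Clusters were classed by the annotation covering most of their nucleotides on their strand (GENCODE vM1; coding sequence came before 3′ UTR, then 5′ UTR, exons of noncoding transcripts, and introns), and a NOVA1 overlap of 1 nt or more made a cluster shared. Positions refer to the longest covering 3′ UTR. YCAY was counted on the cluster strand with overlaps, and compared with 3′ UTR sequence of the same genes outside clusters of both lists and with flanks 200 to 500 nt away. Shares have Wilson intervals, differences Newcombe intervals, medians order-statistic intervals and ratios normal intervals on the log scale, all at 95%, and tag counts do not enter a test. PCR-amplified tags share a source even after duplicate removal, so intervals cover counting error only. Sequences were read with pysam 0.24.0, tables were handled in Python 3.11.15 with pandas 2.3.3, and intervals were computed with SciPy 1.17.1. The overlap and motif counts were tested on simulated data. Named are the 15 members of highest tag count, the 8 genes with most members (ties by tag sum), the 3 leading genes of each list and every gene examined by the study that holds a member, and windows were shown for 10 members off chromosome 18. The members and gene lists were chosen with earlier results of these data known.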

Additional observations from a re-analysis of the deposited data

How the results depend on the processing

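Of 43 alternative values over 14 results, 21 were classed as unchanged and 22 as moved. Percentages, medians and ratios were judged by counting error, and the number of members by a looser rule. With NOVA1 within 100 nt counted as shared, 1359 members against 1568 were thus classed as unchanged, although their share moved. The share of NOVA2 3′ UTR clusters without NOVA1 overlap, 35.5%, became 30.8% when NOVA1 within 100 nt counted as shared, 37.2% when the overlap had to cover 50% of the shorter cluster, 40.2% (917 members) with both lists at 20 or more tags and 17.2% (393 members) with only NOVA2 at 20 or more. The last pair shows by construction that the share depends on where each list starts. With members of 20 or more tags, the median tag count was 26, the median width 141.0 nt, the distance to the 3′ end 1135.0 nt, the YCAY fold 2.09, its ratio to shared clusters 1.1, and the share in introns of other transcripts 14.8%. The YCAY fold was 1.81 against flanks and 2.02 with 1 cluster per gene. The distance to the 3′ end was 843.5 nt in the shortest covering UTR. With NOVA1 at 20 or more tags, 34.2% of members lay in a gene with a NOVA1 3′ UTR cluster and 43.6% in a gene with any. Among gene lists, transcription factors held 85.4% without NOVA1 at 10 to 19 tags and 40% at 20 or more, synaptic genes 39.1% and 5.41%, and axon guidance genes 9.52% at 20 or more; these tag classes and the split by introns were chosen after seeing the data. Where construction does not show it, the cause was not tested.

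No paired analysis was possible because the counts of the 3 libraries of each protein were pooled before deposit, and leaving out a replicate was not run for the same reason. The deposited lists are limited to clusters with 10 or more tags by the authors' filter, so weaker NOVA1 clusters at member positions were not analysed here.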
